A study of Homo sapiens with 34 samples.

Results

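The genes described here are the fibroblast growth factor (FGF) receptors FGFR1, FGFR2, FGFR3 and FGFR4, the platelet-derived growth factor (PDGF) receptors PDGFRA and PDGFRB, the PDGF ligand PDGFA, and KIT, the receptor for stem cell factor. They were taken by gene symbol, and the count tables held 1 identifier for each, which makes 8 of 37951 genes. The study asked whether the place of a cell along the primitive streak (PS), the structure through which cells of the embryo leave the epiblast to become mesoderm and endoderm, limits the fates that it can reach. For this, bulk RNA was sequenced from ESI017, an established line of human embryonic stem cells, with a wild-type genotype in all 34 libraries. There were 17 conditions with 2 libraries each, which the submitters describe as biological replicates.

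In the control (Ctrl), cells stayed in the pluripotency medium mTeSR PLUS, for 48 h by the sample labels and 24 h by the methods. On day 1, the DE(a) protocol, the first day of definitive endoderm (DE) differentiation, contained activin at 100 ng/ml and the Wnt pathway activator CHIR at 2 µM. The anterior PS (APS) protocol combined activin at 30 ng/ml, bFGF at 20 ng/ml and CHIR at 4 µM. The mid PS (MPS) protocol had the same activin and bFGF, CHIR at 6 µM and BMP4 at 40 ng/ml, and the posterior PS (PPS) protocol was the MPS protocol with activin left out. These were collected at 24 h or moved for a second day into 1 of 3 media and collected at 48 h. The DE(b) medium contained activin at 100 ng/ml and the BMP receptor inhibitor LDN at 250 nM. The paraxial mesoderm (PM) medium contained bFGF at 20 ng/ml, LDN at 250 nM and the activin receptor inhibitor A8301 at 1 µM, as the labels and methods list it. Elsewhere the study describes PM induction as using Wnt activation, in its introduction, results and discussion, and a supplementary legend gives CHIR in this medium. Whether PM cells also had CHIR on day 2 is thus uncertain, and with it which agents differ in each comparison with PM. The lateral mesoderm (LM) medium contained BMP4 at 30 ng/ml, A8301 at 1 µM and the Wnt secretion inhibitor IWP2 at 4 µM. Conditions are named by both days, so that PPS-LM is the PPS protocol followed by LM medium, and bFGF, a ligand of the FGF receptors, was present on day 1 in 3 of the 4 protocols and on day 2 in PM medium. All libraries come from 1 cell line, so nothing here speaks of other lines.

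Receptors of these families are single-pass membrane tyrosine kinases. Binding of a ligand brings receptors together in pairs, the kinases phosphorylate each other, and the signal runs through the RAS-ERK, PI3K and PLCG branches. FGF signalling is needed for cells to pass through the streak and for the mesoderm behind it, PDGFRA is a classic marker of paraxial and cardiac mesoderm, and KIT marks definitive endoderm together with CXCR4 besides its roles in blood, germ and pigment cells. PDGFA binds PDGFRA as a dimer. The human FGFR2 transcript is spliced into forms with different ligand preference, and the values here are sums over all transcripts of a gene, so that these forms cannot be told apart.

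The libraries held 15522780 to 23439799 estimated counts (median 19341117), and no member was at or under the floor of 3 counts in any library. The lowest count of a member was 40, for PDGFA. Levels are given as CPM, the counts of a gene scaled to a common library total. Fold changes with their standard errors (SE) and adjusted p-values come from the quasi-likelihood test of edgeR with 1 model for all 34 libraries, and a change was called at an adjusted p under 0.05 over 17895 genes. The summed level of the pluripotency list was 1899 and 2171 CPM in the control and at most 1019 CPM in the other libraries, the endoderm list reached 3921 to 7044 CPM in DE(b) medium, the paraxial list 1364 to 2278 CPM in PM medium, and the lateral list 573 to 2741 CPM in LM medium. PPS-DE(b) held mesoderm markers as well, with 516 and 546 CPM of the paraxial list, against 7.39 and 11.6 in DE(a)-DE(b), and 702 and 559 CPM of the lateral list, which overlaps with the LM libraries. DE(a)-PM replicate 1 differed from its partner in endoderm markers, with SOX17 at 72.7 against 3.75 CPM and FOXA2 at 33.03 against 3.37 CPM. DE(a)-LM held SOX17 at 94.8 and 69.6 CPM, against at most 5.06 CPM in the other LM libraries. In bulk RNA, fewer cells of a type and less RNA per cell cannot be told apart.

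Positions are those of GRCh38. PDGFRA (chromosome 4, 54229280 to 54298245, plus strand) and KIT (chromosome 4, 54657267 to 54740783, plus strand) are next to each other, 359022 bases apart, with KDR, the receptor for vascular endothelial growth factor, as the next gene. FGFR3 is on the same chromosome (1793293 to 1808872, plus strand). PDGFRB (150113839 to 150155872, minus strand) and FGFR4 (177086905 to 177098144, plus strand) are on chromosome 5, FGFR2 (121478332 to 121598458, minus strand) on chromosome 10 and PDGFA (497258 to 520296, minus strand) on chromosome 7. The promoters below are those of the 2 PDGF receptors, which had similar profiles over the conditions, and of KIT and FGFR2, which had the widest ranges. Each runs from 250 bases before to 50 bases after the annotated start, from RefSeq on GRCh38.p14, and capitals mark CpG dinucleotides.
PDGFRA, chr4:54229043-54229342, plus strand: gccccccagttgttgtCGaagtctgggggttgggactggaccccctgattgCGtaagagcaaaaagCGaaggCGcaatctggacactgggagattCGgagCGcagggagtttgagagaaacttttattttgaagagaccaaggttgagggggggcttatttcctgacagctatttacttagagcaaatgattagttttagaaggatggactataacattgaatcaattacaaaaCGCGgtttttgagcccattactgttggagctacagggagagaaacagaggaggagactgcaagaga
PDGFRB, chr5:150155796-150156095, minus strand: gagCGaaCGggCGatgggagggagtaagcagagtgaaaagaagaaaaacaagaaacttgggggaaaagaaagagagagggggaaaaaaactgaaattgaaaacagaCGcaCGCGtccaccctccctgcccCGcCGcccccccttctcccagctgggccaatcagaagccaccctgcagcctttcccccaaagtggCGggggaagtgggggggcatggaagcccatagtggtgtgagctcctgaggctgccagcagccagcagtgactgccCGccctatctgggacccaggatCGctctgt
KIT, chr4:54657707-54658006, plus strand: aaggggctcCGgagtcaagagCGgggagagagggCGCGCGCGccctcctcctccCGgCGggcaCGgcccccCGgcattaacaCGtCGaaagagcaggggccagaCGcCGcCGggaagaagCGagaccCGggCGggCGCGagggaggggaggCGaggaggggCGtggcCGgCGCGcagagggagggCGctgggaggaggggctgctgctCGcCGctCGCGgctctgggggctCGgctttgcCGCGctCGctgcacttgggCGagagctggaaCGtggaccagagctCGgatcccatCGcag
FGFR2, chr10:121598395-121598694, minus strand: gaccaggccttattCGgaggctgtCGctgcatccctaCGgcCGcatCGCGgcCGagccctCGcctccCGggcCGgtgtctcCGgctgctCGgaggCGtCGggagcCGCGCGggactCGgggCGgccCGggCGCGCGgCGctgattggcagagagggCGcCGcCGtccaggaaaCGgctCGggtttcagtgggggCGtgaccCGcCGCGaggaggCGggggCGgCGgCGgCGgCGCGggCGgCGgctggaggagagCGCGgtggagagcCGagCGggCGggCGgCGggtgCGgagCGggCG
The PDGF receptor promoters had few CpG dinucleotides, 8 in PDGFRA and 11 in PDGFRB, against a median of 14 over 35116 promoters of this length. KIT had 38 and FGFR2 had 52. G and C made up 47.0% of the PDGFRA promoter, 59.3% of that of PDGFRB, 74.3% of that of KIT and 79.3% of that of FGFR2, with a median of 58.7% over all promoters. On both strands, AGATAA, the core of the motif bound by GATA factors, was found in 10.3% of all promoters, AGGTGT of T-box factors in 11.4%, CTTTGA of TCF factors in 12.9%, ACAATG of SOX factors in 10.8%, GTCTAG of SMAD proteins in 5.87%, the E-box CACGTG in 7.26% and the TATA box TATAAA in 11.5%, and none of these letters was in the 4 windows. Of the FGFR3, FGFR4 and PDGFA promoters, that of FGFR4 held AGGTGT and GTCTAG and that of PDGFA held CTTTGA. A match is given as letters, not as a site.

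At 24 h, 18 of 32 tests of a member against the control were called, 6 higher and 12 lower, while 25.8% of all tests over all genes were called. At 48 h these numbers were 61 of 96, 27 higher and 34 lower, against 37.5%. All these comparisons use the same 2 control libraries. PDGFRA was called above the control in 16 of 16 conditions. FGFR1, FGFR4 and PDGFA were never called above the control, and FGFR3, PDGFRA and PDGFRB never below it. FGFR2 and KIT moved in both directions, depending on the medium. In the plot of levels by library, this is seen as different media at the top for different genes, LM for FGFR2, FGFR3 and PDGFRB, DE(b) for KIT, and the control for PDGFA.

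**Figure D1:**
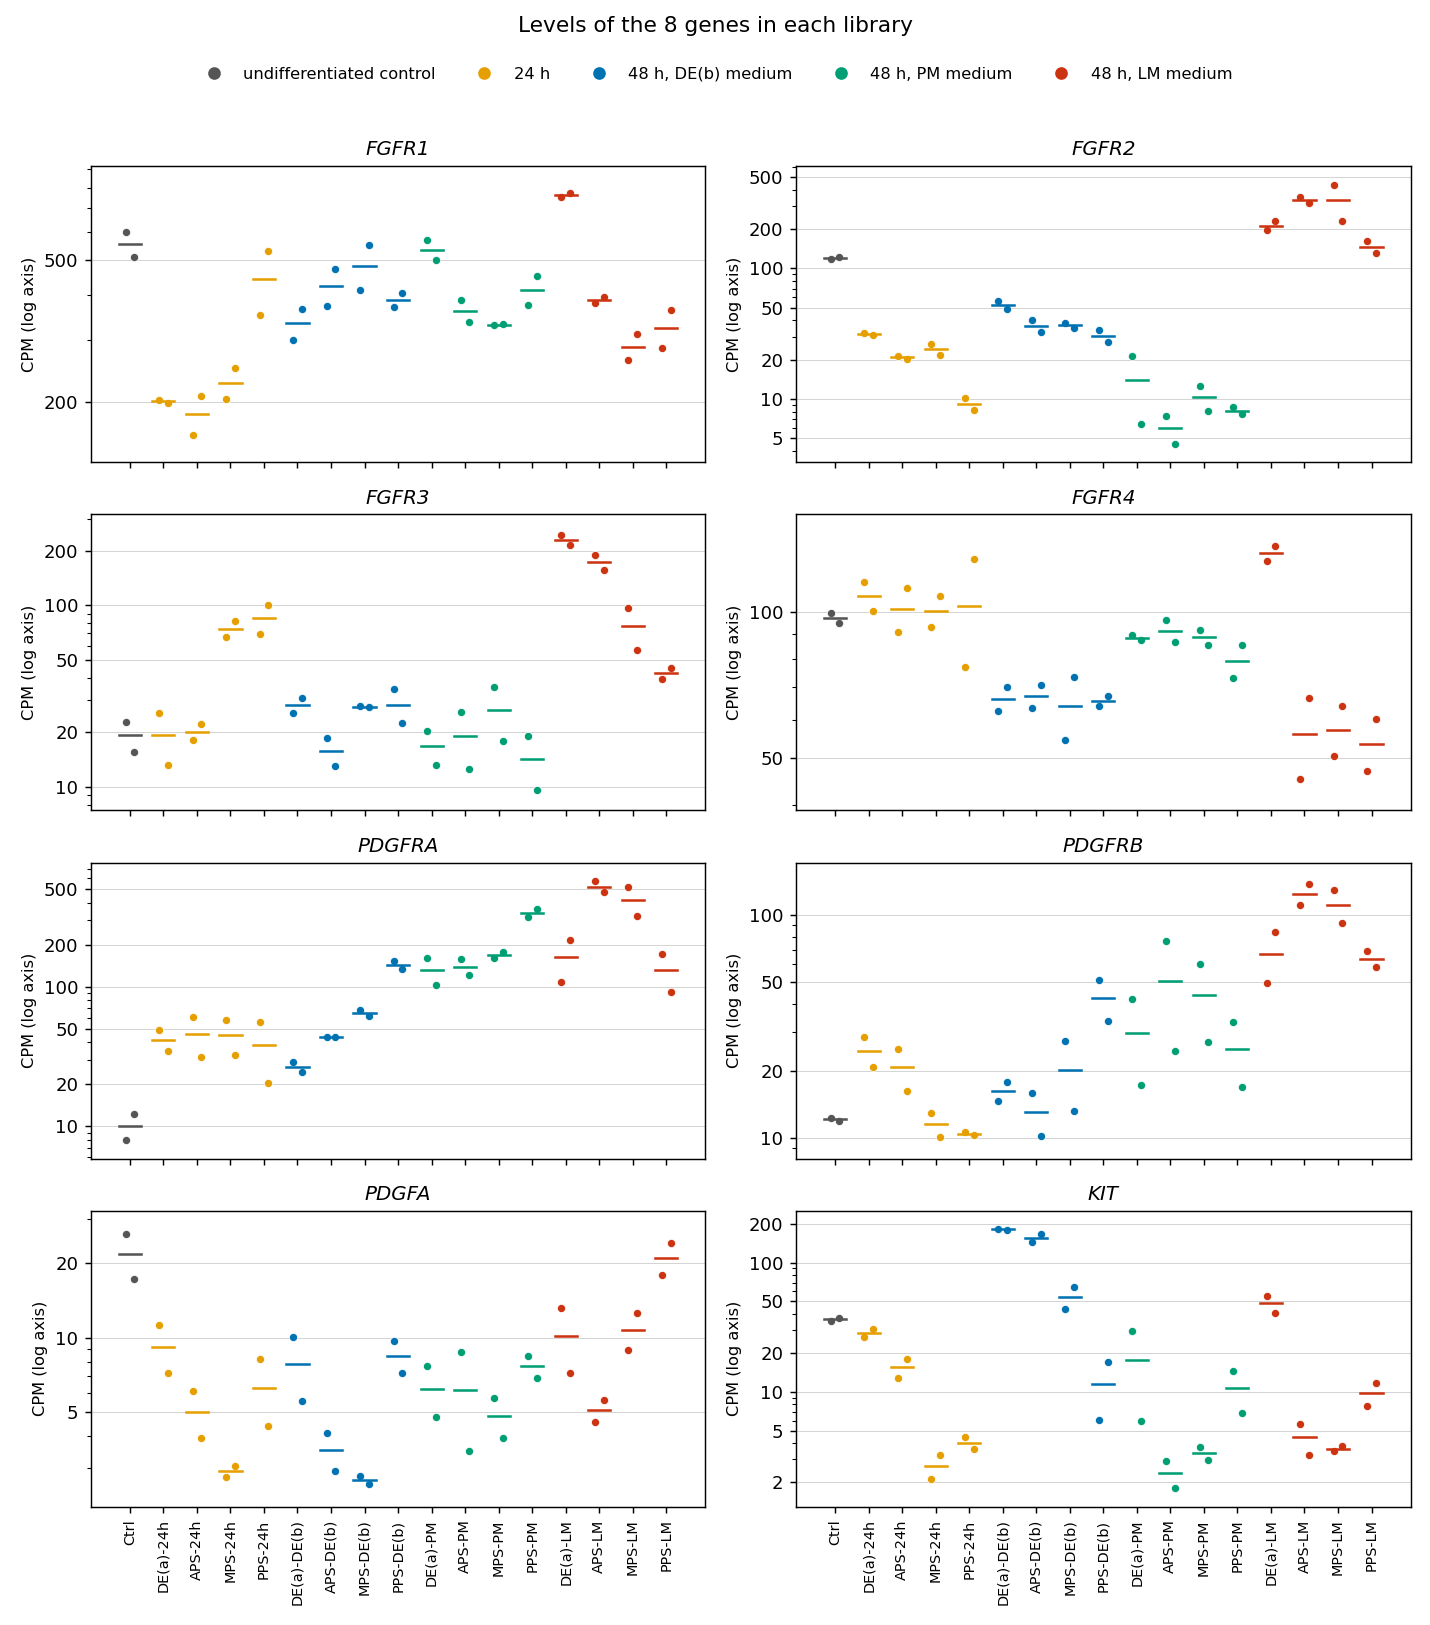
CPM of each gene (log axis) in the 17 conditions, with 1 point per library and a line at the mean of the 2 libraries, coloured by time and medium. On day 2 FGFR2 was lowest in the PM libraries and highest in the LM libraries, PDGFRA was lowest in the control at 8.01 and 12.3 CPM, and KIT was highest in DE(a)-DE(b) at 181 and 179 CPM.

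FGFR1 on chromosome 8, the main FGF receptor of the epiblast and early mesoderm, fell on day 1 under 3 of the 4 protocols. It stood at 600 and 512 CPM in the control, 203 and 199 CPM in DE(a)-24h, 162 and 209 CPM in APS-24h, and 204 and 249 CPM in MPS-24h. Those libraries did not overlap with the control. In PPS-24h it was 352 and 532 CPM, with 1 library in the range of the control. The log2 change against the control was -1.37 (SE 0.20, adjusted p = 3.2e-05) in DE(a)-24h, -1.51 (SE 0.20, adjusted p = 7.4e-06) in APS-24h and -1.20 (SE 0.20, adjusted p = 8.2e-05) in MPS-24h. PPS-24h was not called, and it was above MPS-24h by 0.89 log2 units (SE 0.20, adjusted p = 0.0092), a step in which activin was left out. That call was lost without PPS-24h replicate 2 (adjusted p = 0.27) or without MPS-24h replicate 1 (adjusted p = 0.17), and with only these libraries in the fit (adjusted p = 0.15). Of the 3 comparisons of neighbouring protocols for 8 genes, 4 of 24 were called, with 3.27% over all genes.

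After day 2, FGFR1 was between 263 and 570 CPM in 22 of 24 libraries. The exception was DE(a)-LM, with 752 and 772 CPM, above every library of the other conditions. It was 1.80 log2 units over DE(a)-24h (SE 0.21, adjusted p = 8.2e-07) and 1.296 over MPS-LM (SE 0.20, adjusted p = 0.00011), where the libraries had 263 and 310 CPM. MPS-LM, PPS-LM, MPS-PM, APS-PM and DE(a)-DE(b) were called below the control, with log2 changes from -0.87 to -0.64. Of these, APS-PM was lost without control replicate 1 (adjusted p = 0.11) and without APS-PM replicate 2 (adjusted p = 0.13), DE(a)-DE(b) without either replicate 1 (adjusted p = 0.081 and 0.063), and PPS-LM without PPS-LM replicate 1 (adjusted p = 0.10) or control replicate 1 (adjusted p = 0.062).

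FGFR2, which in its epithelial form answers to FGFs from the mesenchyme, differed most between the media. It was 118 and 122 CPM in the control. At 24 h the libraries lay at 31.7 and 30.7 CPM in DE(a), 21.4 and 20.4 CPM in APS, 26.5 and 21.8 CPM in MPS, and 10.1 and 8.20 CPM in PPS. All 8 were under the control, with log2 changes of -1.85 (SE 0.34, adjusted p = 0.00032), -2.45 (SE 0.35, adjusted p = 1.2e-05), -2.22 (SE 0.34, adjusted p = 2.7e-05) and -3.69 (SE 0.37, adjusted p = 9.7e-08). PPS-24h was called under MPS-24h (log2 change -1.47, SE 0.35, adjusted p = 0.013), a call that was lost without MPS-24h replicate 1 (adjusted p = 0.15) or PPS-24h replicate 2 (adjusted p = 0.18).

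On day 2 the media formed 3 levels that did not overlap for FGFR2. In LM medium the 8 libraries ranged from 131 to 439 CPM with a median of 230.2, in DE(b) medium from 27.2 to 55.8 CPM with a median of 36.6, and in PM medium from 4.53 to 21.2 CPM with a median of 7.84. The highest PM library, DE(a)-PM replicate 1 at 21.2 CPM against 6.46 CPM in replicate 2, was the one with more SOX17 and FOXA2, and their part in its level was not tested. In the model with the 4 day 1 protocols averaged, LM exceeded PM by 4.80 log2 units (SE 0.19, adjusted p = 7.6e-15), a fold of 27.8, and DE(b) by 2.67 (SE 0.17, adjusted p = 2.3e-11). DE(b) exceeded PM by 2.13 (SE 0.18, adjusted p = 1.4e-09), and by 2.40 without DE(a)-PM replicate 1. Against their own 24 h cells, 4 of 4 LM conditions rose, by 2.65 to 4.05 log2 units, and DE(a)-PM, APS-PM and MPS-PM fell. The fall in DE(a)-PM was lost without DE(a)-PM replicate 2 (adjusted p = 0.15) or with only these libraries in the fit (adjusted p = 0.099), and that in MPS-PM without MPS-PM replicate 2 (adjusted p = 0.12) or MPS-24h replicate 1 (adjusted p = 0.066). Within LM medium, MPS-LM had 439 and 230 CPM, APS-LM 351 and 315, DE(a)-LM 196 and 230, and PPS-LM 162 and 131. PPS-LM was called under MPS-LM (log2 change -1.19, SE 0.33, adjusted p = 0.032). That call was lost without MPS-LM replicate 1 (adjusted p = 0.44), without either PPS-LM library (adjusted p = 0.11 and 0.32), and with only the libraries compared (adjusted p = 0.060).

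FGFR3, a receptor that is prominent in cartilage and in neural and endodermal epithelium, was low in the control, with 22.9 and 15.7 CPM. On day 1 it was 25.4 and 13.3 CPM in DE(a)-24h, on both sides of the control, 18.2 and 22.1 CPM in APS-24h, in the range of the control, and 67.0 and 81.5 CPM in MPS-24h and 69.5 and 100.2 CPM in PPS-24h. MPS-24h and PPS-24h, the protocols with BMP4, exceeded the control by 2.04 (SE 0.39, adjusted p = 0.0003) and 2.16 log2 units (SE 0.39, adjusted p = 0.00019). MPS-24h exceeded APS-24h by 1.90 (SE 0.39, adjusted p = 0.0062), a step with more CHIR as well as BMP4, whose parts cannot be told apart. This call was lost without APS-24h replicate 1 (adjusted p = 0.11), APS-24h replicate 2 (adjusted p = 0.058) or MPS-24h replicate 2 (adjusted p = 0.054).

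In DE(b) and PM medium, FGFR3 lay between 9.63 and 35.6 CPM in 16 of 16 libraries, also after MPS and PPS. It fell from MPS-24h and PPS-24h in both media, with log2 changes of -1.49 (adjusted p = 0.0053) and -1.53 (adjusted p = 0.0058) in DE(b), and -1.60 (adjusted p = 0.004) and -2.60 (adjusted p = 5.8e-05) in PM. Without replicate 2 of MPS-PM (adjusted p = 0.098), MPS-DE(b) (adjusted p = 0.052) or PPS-DE(b) (adjusted p = 0.10), or without PPS-24h replicate 2 for PPS-DE(b) (adjusted p = 0.076), the respective call was lost. In LM medium the protocols stood in another order. DE(a)-LM held 245 and 213 CPM, APS-LM 189 and 155, MPS-LM 96.8 and 56.9, and PPS-LM 39.3 and 45.3. No library of 1 condition overlapped with those of the next in this order. Against their own 24 h cells, DE(a)-LM rose by 3.44 log2 units (SE 0.41, adjusted p = 1.4e-06) and APS-LM by 3.05 (SE 0.40, adjusted p = 3.5e-06), and MPS-LM and PPS-LM were not called. DE(a)-LM exceeded MPS-LM by 1.47 (SE 0.38, adjusted p = 0.0095), which was lost without MPS-LM replicate 2 (adjusted p = 0.18) or DE(a)-LM replicate 1 (adjusted p = 0.059). Amnion genes also differed between these conditions, with a summed level of 249 and 314 CPM in DE(a)-LM, 95.4 and 108 in APS-LM, 81.8 and 129 in MPS-LM, and 353 and 492 in PPS-LM, where FGFR3 was lowest, and their part was not tested. Over the 4 protocols, LM exceeded PM in FGFR3 by 2.56 (SE 0.20, adjusted p = 4.2e-10) and DE(b) by 2.13 (SE 0.19, adjusted p = 7e-09).

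FGFR4, a receptor of endoderm and muscle precursors that binds FGF19 together with KLB in the liver, varied least. Its highest mean, 132 CPM in DE(a)-LM, was 2.47 times its lowest, 53.6 CPM in PPS-LM. The control had 99.5 and 94.9 CPM, and the 24 h libraries ranged from 76.9 to 129 CPM, with 0 of 4 conditions called against the control in edgeR. At an unadjusted p under 0.05, 0 of these 4 tests passed in edgeR, and DESeq2 called 0 of 4. The 8 libraries of DE(b) medium lay in a narrow band from 54.5 to 73.4 CPM, in PM medium from 73.0 to 96.3 CPM. DE(b) was called under PM (log2 change -0.35, SE 0.11, adjusted p = 0.014), with a small overlap of single libraries. In LM medium, DE(a)-LM stood apart at 128 and 137 CPM, while APS-LM, MPS-LM and PPS-LM ranged from 45.3 to 66.5 CPM. The difference between DE(a)-LM and MPS-LM was 1.09 log2 units (SE 0.22, adjusted p = 0.0014). The other 3 LM conditions were below the control (log2 changes -0.67 to -0.79) and below their own 24 h cells (log2 changes -0.82 to -0.90). FGFR4 was the member whose calls depended most on single libraries, with 11 of 13 calls lost in at least 1 alternative. Without replicate 1 of APS-LM, MPS-LM or PPS-LM, the calls of these conditions had adjusted p of 0.16, 0.20 and 0.091 against the control and 0.083, 0.13 and 0.090 against 24 h. For MPS-LM, either control library or MPS-24h replicate 2 (adjusted p = 0.056 to 0.075), and for PPS-LM, PPS-24h replicate 2 (adjusted p = 0.18) or a fit of only the libraries compared (adjusted p = 0.070), also ended a call.

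Counts scaled by transcript length allow the FGF receptors to be set beside each other. With the lengths of the canonical transcripts, from 3093 bases for FGFR4 to 5697 for FGFR1, FGFR1 made up 61.1% of the summed CPM per kilobase (kb) of the 4 receptors in the control, FGFR4 19.7%, FGFR2 16.4% and FGFR3 2.79%. At 24 h in DE(a), APS and MPS, FGFR4 had a share of 42.9%, 44.03% and 34.3%, beside 43.4%, 43.5% and 41.9% of FGFR1. In PM medium FGFR1 and FGFR4 together held nearly all, with FGFR2 at 1.28% to 2.32% and FGFR3 at 2.98% to 6.46%. In LM medium FGFR2 was at 16.7% in DE(a)-LM, 36.3% in APS-LM, 44.4% in MPS-LM and 27.7% in PPS-LM. The mean of FGFR2 was ahead of that of FGFR1 in APS-LM, with 72.02 ± 5.53 against 67.9 ± 1.63 CPM per kb (SD, n = 2), and in MPS-LM, with 72.4 ± 31.9 against 50.3 ± 5.94. Both differences were smaller than the SD of FGFR2, and in replicate 2 of both conditions FGFR1 was ahead. The order also rests on the length chosen. With the union of all annotated exons, which is 17201 bases for FGFR1, 18813 for FGFR2, 4848 for FGFR3 and 4810 for FGFR4, FGFR2 was 20.3% of APS-LM beside 25.8% of FGFR1 and 40.6% of FGFR3, FGFR1 and FGFR2 were at 27.4% and 28.0% in MPS-LM, and FGFR4 was ahead of FGFR1 in DE(a)-24h, APS-24h and MPS-24h.

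**Figure D2:**
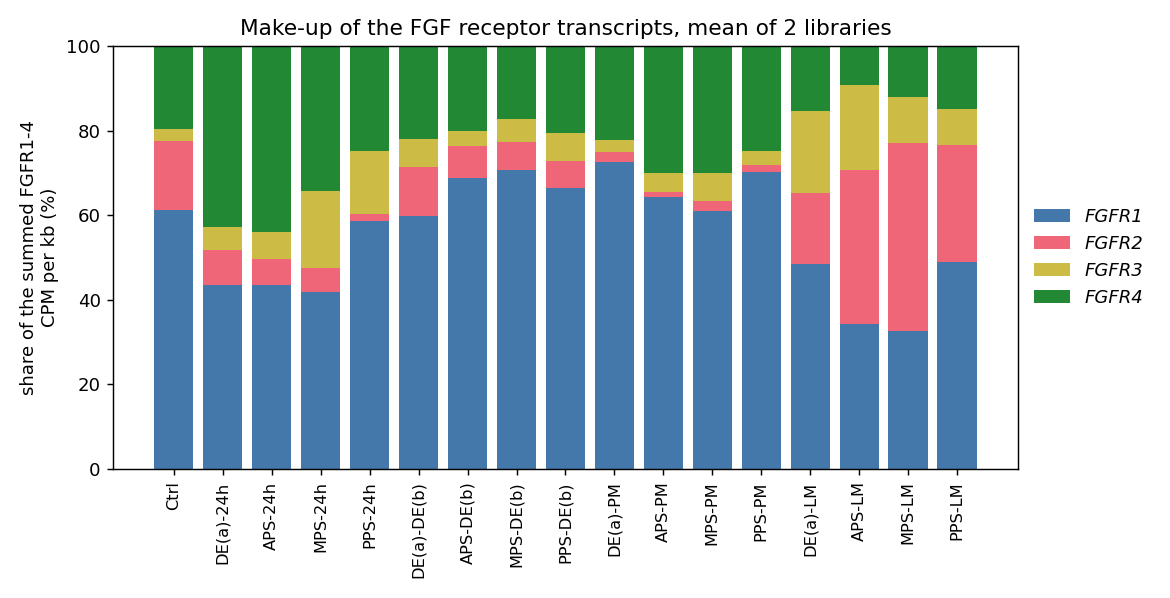
Share (%) of each FGF receptor in the summed CPM per kb of FGFR1, FGFR2, FGFR3 and FGFR4, with lengths of the canonical transcripts, as the mean of the 2 libraries of each condition. FGFR1 was at 61.1% in the control and 41.9% to 43.5% in DE(a)-24h, APS-24h and MPS-24h, and FGFR2 was largest in MPS-LM at 44.4%.

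PDGFRA, the receptor for PDGF-AA dimers, rose in all 16 conditions outside the control. It had 8.01 and 12.3 CPM in the control, its lowest level. At 24 h the protocols differed little, with 48.8 and 34.8 CPM in DE(a), 60.5 and 31.5 in APS, 57.8 and 32.2 in MPS, and 55.7 and 20.5 in PPS. Replicate 1 was the higher in all 4, and all 8 libraries lay above the control, by 1.94 to 2.26 log2 units (SE 0.44 to 0.45, adjusted p of 0.0019 or less). In PPS-24h the call was lost without replicate 1 (adjusted p = 0.11), and among the day 2 conditions that of DE(a)-DE(b) (log2 change 1.41) without its replicate 1 (adjusted p = 0.073) or control replicate 1 (adjusted p = 0.16). On day 2 the means stood from low to high in the order DE(a), APS, MPS and PPS in DE(b) and PM medium and stood in another order in LM medium. In DE(b) medium PDGFRA climbed from 28.7 and 24.4 CPM after DE(a), over 43.4 and 43.7 after APS and 68.4 and 61.2 after MPS, to 154 and 134 after PPS. No libraries of neighbouring protocols overlapped. Summed markers of mesoderm stood in the same order, with 9.48, 42.3, 159 and 531 CPM for the paraxial list (2, 4, 4 and 6 of 6 genes at 1 CPM, MSGN1 at 0 after DE(a) and APS) and 61.6, 106, 314 and 630 CPM for the lateral list (3, 3, 4 and 6 of 6 genes, HAND2 and FOXF1 at 0 after DE(a) and APS), and their part in PDGFRA was not tested. PPS-DE(b) exceeded DE(a)-DE(b) by 2.48 log2 units (SE 0.44, adjusted p = 0.00034), and it was the only DE(b) condition called above its own 24 h cells (1.95, SE 0.43, adjusted p = 0.002, and adjusted p = 0.060 without PPS-24h replicate 2).

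In PM medium PDGFRA was 162 and 102 CPM after DE(a), 156 and 122 after APS, 160 and 176 after MPS, and 316 and 357 after PPS. The PPS libraries were above the other 6, and the difference from APS-PM was not called (log2 change 1.29, SE 0.42, adjusted p = 0.078). All 4 rose from their own 24 h cells, by 1.49 to 3.11 log2 units. The calls after DE(a), APS and MPS were each lost without 1 of the libraries, DE(a)-PM replicate 1 (adjusted p = 0.11), DE(a)-24h replicate 2 (adjusted p = 0.11), APS-PM replicate 1 (adjusted p = 0.075), APS-24h replicate 2 (adjusted p = 0.15) or MPS-24h replicate 2 (adjusted p = 0.077). In LM medium the middle protocols led, with 567 and 473 CPM in APS-LM and 517 and 322 in MPS-LM, against 109 and 215 in DE(a)-LM and 171 and 92.3 in PPS-LM. All 4 rose from their 24 h cells, by 1.82 to 3.45 log2 units, a call lost in DE(a)-LM without its replicate 2 (adjusted p = 0.070) and in PPS-LM without its replicate 1 (adjusted p = 0.066) or PPS-24h replicate 2 (adjusted p = 0.070). DE(a)-LM and PPS-LM were below MPS-LM, with log2 changes of -1.46 (SE 0.42, adjusted p = 0.02) and -1.68 (SE 0.42, adjusted p = 0.018). The first was lost without DE(a)-LM replicate 1 (adjusted p = 0.26) or MPS-LM replicate 1 (adjusted p = 0.16), or with only the libraries compared (adjusted p = 0.051), the second without MPS-LM replicate 1 (adjusted p = 0.18) or PPS-LM replicate 2 (adjusted p = 0.31). HAND1, the lateral mesoderm marker, was at 388 and 818 CPM in DE(a)-LM, in the same order as PDGFRA in these 2 libraries. The summed lateral list was at 1181 and 2093 CPM in APS-LM and 2332 and 2741 in MPS-LM, the opposite order from PDGFRA. In PPS-LM it was at 2537 and 2371 CPM, the same order, while PDGFRA was low there. The part of lateral markers in PDGFRA was not tested.

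PDGFRB, the receptor preferred by PDGF-BB and a marker of pericytes and other mural cells, was 12.3 and 11.9 CPM in the control, and 0 of 4 conditions were called at 24 h in edgeR, where the libraries had 10.1 to 28.3 CPM. At an unadjusted p under 0.05, 1 of the 4 passed, and DESeq2 called 0. The mean was highest in LM medium, with 49.6 and 84.0 CPM in DE(a)-LM, 111 and 137 in APS-LM, 130 and 92.5 in MPS-LM, and 68.8 and 58.7 in PPS-LM. All 4 conditions rose against the control, by 2.45 to 3.40 log2 units, and against their own 24 h cells, by 1.33 to 3.24. The smallest, DE(a)-LM against DE(a)-24h (SE 0.49, adjusted p = 0.042), was lost without DE(a)-LM replicate 2 (adjusted p = 0.34) or either DE(a)-24h library (adjusted p = 0.093 and 0.22). In PM medium replicate 1 exceeded replicate 2 in 4 of 4 conditions, by 1.96 to 3.12 times. The values were 42.1 and 17.2 CPM in DE(a)-PM, 76.5 and 24.5 in APS-PM, 60.4 and 26.8 in MPS-PM, and 33.05 and 16.9 in PPS-PM. The calls of APS-PM and MPS-PM above the control (log2 changes 2.04 and 1.83) were lost without their replicate 1 (adjusted p = 0.17 and 0.15), and that of MPS-PM also without either control library (adjusted p = 0.053 and 0.054). In DE(b) medium, PPS-DE(b), with 51.2 and 33.6 CPM, was above the other 6 libraries, which had 10.2 to 27.2 CPM, and was called against the control (1.88, SE 0.51, adjusted p = 0.0059, with adjusted p = 0.067 without PPS-DE(b) replicate 1 and 0.051 without control replicate 1).

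PDGFA, the ligand, was highest in the control, with 26.2 and 17.1 CPM. It fell at 24 h to 6.11 and 3.94 CPM in APS, 2.75 and 3.04 in MPS, and 8.18 and 4.39 in PPS, with log2 changes of -2.03 (SE 0.43, adjusted p = 0.0012), -2.81 (SE 0.45, adjusted p = 4.4e-05) and -1.75 (SE 0.43, adjusted p = 0.0033). In PPS-24h the call was lost without replicate 2 (adjusted p = 0.066). DE(a)-24h, with 11.2 and 7.20 CPM, was also under both control libraries and was not called (adjusted p = 0.063). On day 2 it was under the control in DE(b) and PM medium in 8 of 8 conditions, with 2.58 to 10.02 CPM per library. Of these calls, 5 depended on single libraries, control replicate 1 for DE(a)-DE(b) (adjusted p = 0.11), PPS-DE(b) (adjusted p = 0.18) and PPS-PM (adjusted p = 0.082), replicate 2 of DE(a)-DE(b) (adjusted p = 0.15), PPS-DE(b) (adjusted p = 0.16), DE(a)-PM (adjusted p = 0.051), APS-PM (adjusted p = 0.054) and PPS-PM (adjusted p = 0.064) for their own calls, and replicate 1 of PPS-DE(b) (adjusted p = 0.055). In LM medium PDGFA was 13.1 and 7.18 CPM in DE(a)-LM, 4.59 and 5.59 in APS-LM, 8.95 and 12.6 in MPS-LM, and 17.8 and 24.0 in PPS-LM. PPS-LM reached the range of the control, and MPS-LM and PPS-LM rose from their own 24 h cells by 1.89 (SE 0.44, adjusted p = 0.0021) and 1.78 (SE 0.43, adjusted p = 0.0035, and 0.077 without PPS-24h replicate 2). The ligand and its receptor PDGFRA thus changed in opposite directions between the control and the differentiated cells, with 13 of 16 conditions called lower for PDGFA and 16 of 16 higher for PDGFRA. Of the 13, DE(a)-LM (log2 change -1.13, adjusted p = 0.040) was lost without control replicate 1 (adjusted p = 0.26) or DE(a)-LM replicate 2 (adjusted p = 0.29). The control libraries are shared by both counts.

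KIT had the widest range of the 8 genes, 76.5 times between the mean of 180 CPM in DE(a)-DE(b) and that of 2.36 CPM in APS-PM. In the control it was 35.5 and 37.3 CPM. On day 1 it stood at 26.4 and 30.7 CPM in DE(a)-24h, 12.9 and 18.1 in APS-24h, 2.13 and 3.24 in MPS-24h, and 4.48 and 3.61 in PPS-24h. All 8 libraries were under the control, and the fall was called in MPS-24h (log2 change -3.67, SE 0.56, adjusted p = 2.4e-05) and PPS-24h (log2 change -3.14, SE 0.54, adjusted p = 0.00012). The step from APS to MPS was called (log2 change -2.51, SE 0.55, adjusted p = 0.011) and was lost without APS-24h replicate 2 (adjusted p = 0.10) or either MPS-24h library (adjusted p = 0.19 and 0.068).

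In DE(b) medium KIT rose from the level of 24 h after every protocol, and its level was lower with each protocol from DE(a) to PPS. It was 181 and 179 CPM after DE(a), 144 and 167 after APS, 43.9 and 64.8 after MPS, and 6.01 and 17.1 after PPS, with no overlap between neighbours. The rises were 2.59 (SE 0.50, adjusted p = 0.00055), 3.29 (SE 0.52, adjusted p = 4.8e-05), 4.27 (SE 0.57, adjusted p = 7.2e-06) and 1.54 log2 units (SE 0.54, adjusted p = 0.046), so that the fold was largest after MPS and the level was largest after DE(a). Against the control, APS-DE(b) was higher by 2.13 (SE 0.49, adjusted p = 0.0015) and DE(a)-DE(b) by 2.33 (SE 0.50, adjusted p = 0.00087). The rise after PPS was lost without PPS-DE(b) replicate 2 (adjusted p = 0.55) or either PPS-24h library (adjusted p = 0.10 and 0.24), and with only the libraries compared (adjusted p = 0.092). Against DE(a)-DE(b), PPS-DE(b) was lower (log2 change -3.93, SE 0.54, adjusted p = 2e-05), and so was MPS-DE(b) (log2 change -1.73, SE 0.49, adjusted p = 0.038). The second call was lost without any 1 of its 4 libraries, with adjusted p from 0.10 to 0.32. Endoderm markers did not all move with it. FOXA2 was lower after PPS, with 86.0 and 124.9 CPM in DE(a)-DE(b) and 6.59 ± 6.25 CPM (mean and SD, n = 2) in PPS-DE(b). So was CXCR4, with 168 and 154 against 9.25 and 17.5 CPM. The study reports FOXA2 as low after MPS too, and SOX17 as similar over the protocols except after PPS. Also from immunostaining, it concludes that cells of the mid and posterior PS lose the potential for endoderm. It adds that in DE(b) medium they keep a transcriptome similar to that of DE cells. SOX17 had means of 385, 459, 472 and 168 CPM along the protocols from DE(a) to PPS, and was also lowest after PPS. Over the whole endoderm list, 6 of 6 genes reached 1 CPM after DE(a), APS and MPS and 5 of 6 after PPS. Mean summed levels were 5285, 6072, 6903 and 4297 CPM, so the sum was higher after MPS than after DE(a), unlike KIT. SOX17, FOXA2 and CXCR4 made up the smaller part of these sums after DE(a) and after PPS. The part of cell composition in KIT was not tested.

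Outside DE(b) medium, KIT above 20 CPM on day 2 was found only in libraries that started from DE(a). DE(a)-PM had 29.4 and 5.90 CPM, and SOX17 and FOXA2 were also higher in replicate 1. DE(a)-LM had 55.4 and 41.0 CPM, against 3.22 to 11.7 CPM in the other 6 LM libraries, and exceeded MPS-LM by 3.60 log2 units (SE 0.55, adjusted p = 8.5e-05). Of the endoderm list, 6 of 6 genes reached 1 CPM in DE(a)-LM and 2 of 6 in MPS-LM, where SOX17 was at 0 in both libraries. The summed level was 216 and 204 against 109 and 116 CPM, and 3921 to 7044 CPM in DE(b) medium. SOX17 alone stood above the other LM libraries in DE(a)-LM, as given above. The part of endoderm markers in the KIT level was not tested. The difference of DE(a)-PM from APS-PM, 2.91 log2 units (SE 0.56), had an adjusted p of 0.051, whereas PPS-PM, with 14.4 and 6.90 CPM against 2.92 and 1.79, was called (2.19, SE 0.55, adjusted p = 0.02). That call was lost without APS-PM replicate 1 (adjusted p = 0.084), APS-PM replicate 2 (adjusted p = 0.17) or PPS-PM replicate 1 (adjusted p = 0.18), and with only the libraries compared (adjusted p = 0.12). Of the genes of mast cells and pigment cells, which also express KIT, CPA3 was at 0 in 8 of 8 DE(b) libraries, 1 of 5 on the list reached 1 CPM in each condition, and the summed level was 6.22 to 29.9 CPM in DE(b) against 81.0 and 74.8 CPM in the control. Of 8 germ cell genes, 3 reached 1 CPM in each DE(b) condition. Their summed level was 154 to 682 CPM in DE(b), against 17.1 and 15.0 CPM in the control. The sum includes SOX17, and its means of 529, 606, 596 and 219 CPM from DE(a) to PPS exceeded those of SOX17 given above. NANOS3 and DDX4 were at 0 in both DE(a)-DE(b) libraries, and neither was at 0 in both PPS-DE(b) libraries. The part of these genes in KIT was not tested.

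**Figure D3:**
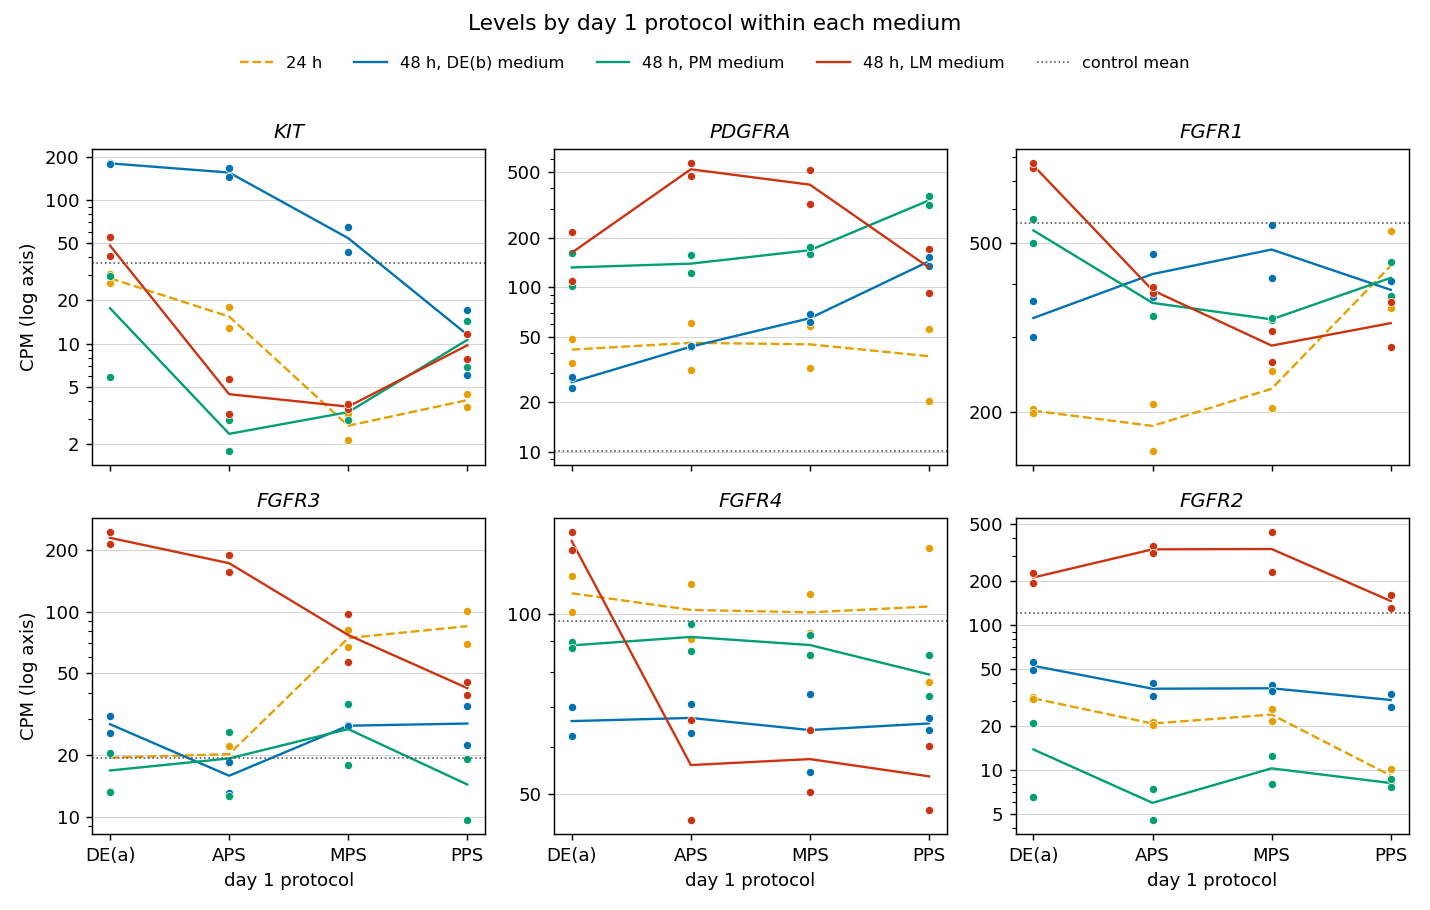
CPM (log axis) of KIT, PDGFRA, FGFR1, FGFR3, FGFR4 and FGFR2 by day 1 protocol, with points for single libraries, lines through the means of each time and medium, and a dotted line at the control mean. In DE(b) medium KIT dropped from 181 and 179 CPM after DE(a) to 6.01 and 17.1 CPM after PPS, while PDGFRA climbed from 28.7 and 24.4 to 154 and 134 CPM.

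Averaged over the day 1 protocols, the media comparisons called 5 of 8 members for DE(b) against PM, where 43% of all genes were called, 5 of 8 for LM against PM (42% of all genes) and 6 of 8 for LM against DE(b) (39.6%). Members whose 8 and 8 libraries did not overlap were FGFR2 in DE(b) against PM (1 of 8, with 11.7% of all genes), FGFR2 and FGFR3 in LM against PM (2 of 8, 11.6%), and FGFR2 and FGFR3 in LM against DE(b) (2 of 8, 8.06%). PDGFRA was lower in DE(b) than in PM (log2 change -1.59, SE 0.21, adjusted p = 1.8e-06) and higher in LM than in DE(b) (2.19, SE 0.22, adjusted p = 2.1e-08). In LM against PM it was higher by 0.60 (SE 0.21, adjusted p = 0.022), which 6 of the 16 libraries could each undo when left out, with adjusted p from 0.050 to 0.10. They were replicate 1 of MPS-PM, MPS-LM and PPS-LM, and replicate 2 of DE(a)-PM, APS-PM and DE(a)-LM. PDGFRB was higher in LM than in PM (1.36, SE 0.24, adjusted p = 9.2e-05) and than in DE(b) (2.09, SE 0.25, adjusted p = 5e-07). It was lower in DE(b) than in PM (log2 change -0.73, SE 0.25, adjusted p = 0.02), a call lost without replicate 1 of any PM condition (adjusted p = 0.071 to 0.11), without replicate 2 of APS-DE(b), MPS-DE(b) or PPS-DE(b) (adjusted p = 0.054 to 0.062), and with only the 16 libraries compared (adjusted p = 0.072). PDGFA was higher in LM than in PM (0.82, SE 0.21, adjusted p = 0.0032) and DE(b) (1.06, SE 0.22, adjusted p = 0.00037).

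KIT was the one member with its largest level in DE(b), 3.44 log2 units over PM (SE 0.27, adjusted p = 6.2e-10), 3.84 without DE(a)-PM replicate 1, and with a change of -2.79 (SE 0.26, adjusted p = 1.1e-08) in LM against DE(b). The medium means of FGFR1 were close, 439.8 CPM in LM, 410.3 in PM and 406 in DE(b), and 0 of the 3 comparisons were called in edgeR, with log2 changes of 0.02 to 0.07 (SE 0.10). At an unadjusted p under 0.05, 0 of 3 passed, and DESeq2 called 0 of 3. The means over a medium average DE(a)-LM with LM conditions that had much lower levels of FGFR1.

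**Figure D4:**
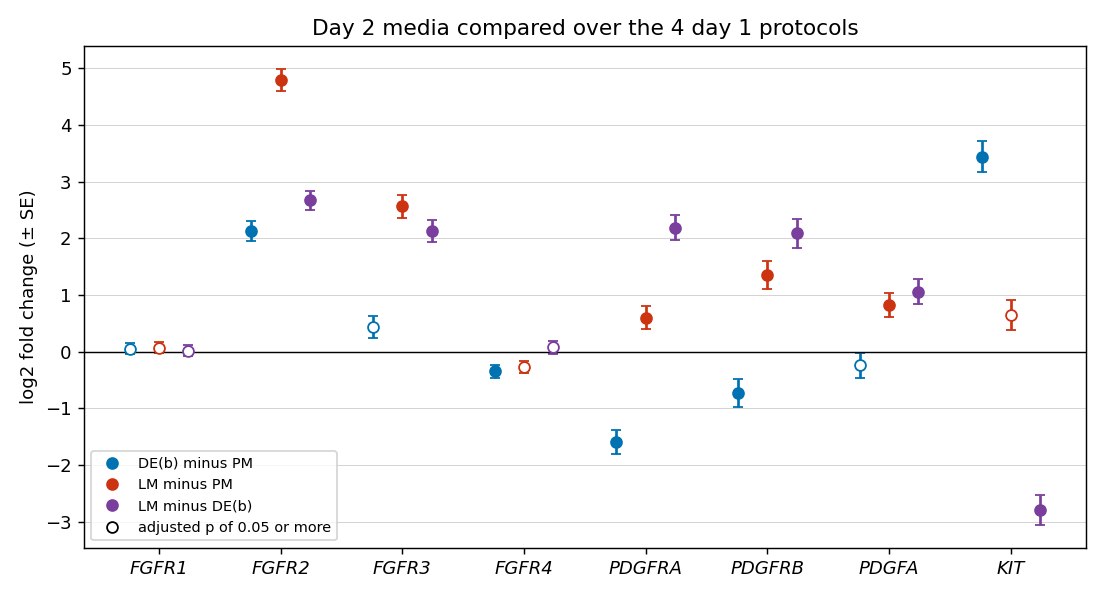
Log2 fold changes with SE of the 3 comparisons of day 2 media, each over the 4 day 1 protocols, with filled points at an adjusted p under 0.05. FGFR2 had the largest difference, 4.80 for LM minus PM, KIT was 3.44 for DE(b) minus PM and -2.79 for LM minus DE(b), and the FGFR1 points lay near 0.

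Against the 24 h cells of the same protocol, 15 of 32 tests were called in DE(b), 10 higher and 5 lower (26.8% of all tests over all genes), 13 of 32 in PM, 7 higher and 6 lower (22.9%), and 22 of 32 in LM, 18 higher and 4 lower (31.4%). These share the 24 h libraries among the media. PDGFRA rose in 4 of 4 protocols in PM and in LM, and in 1 of 4 in DE(b). FGFR4 fell in 3 of 4 in DE(b) and in LM. The 3 falls in DE(b) were each lost without single libraries, DE(a)-DE(b) without replicate 1 of it (adjusted p = 0.080) or of DE(a)-24h (adjusted p = 0.086), APS-DE(b) without either of its libraries (adjusted p = 0.18 and 0.082) or APS-24h replicate 2 (adjusted p = 0.23), and MPS-DE(b) without its replicate 1 (adjusted p = 0.21) or MPS-24h replicate 2 (adjusted p = 0.12). In PM medium 0 of 4 tests of FGFR4 were called by edgeR, 0 at an unadjusted p under 0.05, and 0 by DESeq2. KIT rose in 4 of 4 in DE(b) and fell in 1 of 4 in PM and in LM, both times after APS. The fall in APS-LM (log2 change -1.85, SE 0.53, adjusted p = 0.0084) was lost without APS-24h replicate 2 (adjusted p = 0.060) or APS-LM replicate 2 (adjusted p = 0.093).

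Whether the day 1 protocol still mattered within a medium was tested against the standard protocol of each fate, which is MPS-LM for lateral mesoderm, APS-PM for paraxial mesoderm and DE(a)-DE(b) for endoderm. In DE(b) medium 4 of 24 tests of members were called (7.81% over all genes), in PM medium 1 of 24 (1.92%) and in LM medium 7 of 24 (7.92%). Of the 7 in LM medium, 5 were in DE(a)-LM, where FGFR1, FGFR3, FGFR4 and KIT were higher and PDGFRA lower than in MPS-LM, and 2 in PPS-LM, where FGFR2 and PDGFRA were lower. APS-LM had 0 of 8 called in edgeR, 2 at an unadjusted p under 0.05, and 1 called by DESeq2. The calls in DE(b) medium were KIT and PDGFA in MPS-DE(b) and KIT and PDGFRA in PPS-DE(b). The fall of PDGFA in MPS-DE(b) to 2.78 and 2.58 CPM, from 10.02 and 5.58 CPM in DE(a)-DE(b) (log2 change -1.53, SE 0.45, adjusted p = 0.045), was lost without either library of MPS-DE(b) or without DE(a)-DE(b) replicate 1 (adjusted p = 0.22 to 0.28), and with only the libraries compared (adjusted p = 0.12).

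The interaction of the day 1 protocol and the day 2 medium was called for 5 of 8 members, with 13.1% of all genes. The adjusted p was 0.00015 for KIT, 0.0018 for PDGFRA, 0.0021 for FGFR1, 0.0034 for FGFR3 and 0.026 for FGFR4. It was 0.068 for FGFR2, 0.077 for PDGFRB and 0.15 for PDGFA. The call of FGFR4 was lost without either DE(a)-LM library (adjusted p = 0.069 and 0.17) or without DE(a)-DE(b) replicate 1 (adjusted p = 0.057). On the log2(CPM + 1) scale over the 24 libraries of day 2, the medium accounted for 93.9% of the sum of squares of FGFR2, 71.8% of FGFR3, 63.5% of PDGFRB, 54.8% of PDGFRA and 50.5% of KIT, with a median of 31.3% over the genes tested. For FGFR1 it was 0.037%, while the interaction held 61.7% and the day 1 protocol 28.2%. The interaction was also the largest part for FGFR4, with 42.6%, and the day 1 protocol was the largest for PDGFA, with 36.7%. The replicates held 2.42% for FGFR2 and 16.3% for PDGFRB, with a median of 24.4% over the genes tested.

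**Figure D5:**
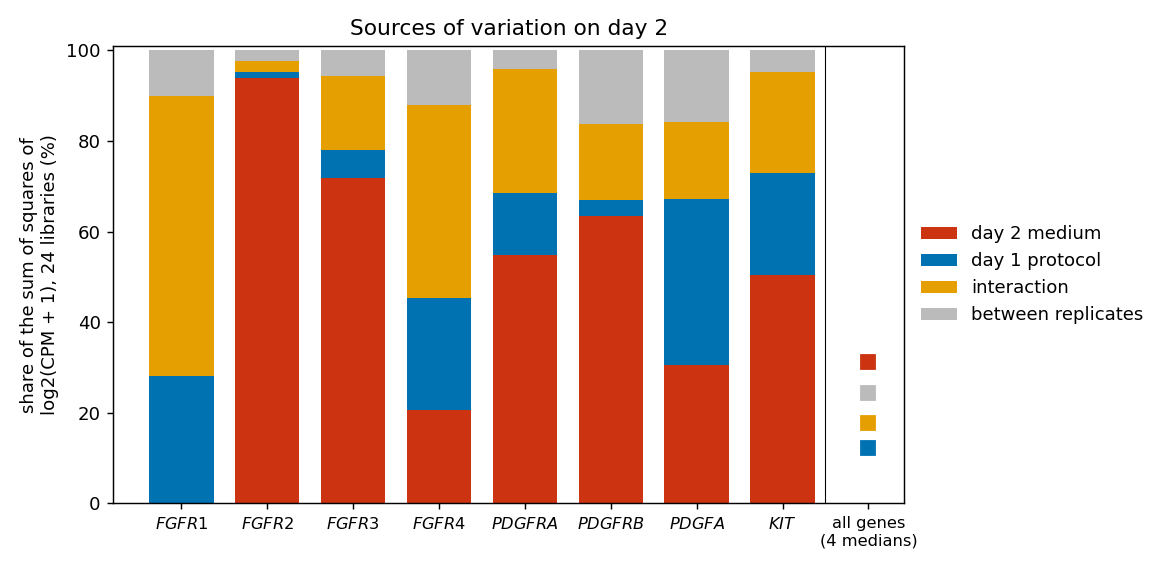
Share (%) of the sum of squares of log2(CPM + 1) over the 24 libraries of day 2 that belongs to the day 2 medium, the day 1 protocol, their interaction and the difference between replicates, stacked for each gene, with squares at the 4 medians over the genes tested. The medium held 93.9% for FGFR2 and 0.037% for FGFR1, where the interaction held 61.7%.

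Over the 17 condition means, PDGFRA and PDGFRB were the most alike of the members, with a Pearson r of 0.84 on log2(CPM + 1) values, and KIT and PDGFRA the least, with r = -0.50. These are descriptions over 17 points that share day 1 protocols and media. FGFR2 and FGFR3 had r = 0.59, and FGFR2 and FGFR4 r = -0.38. Among 14647 genes whose mean reached 1 CPM, the 3 most like FGFR2 were SDC4 (r = 0.94), a heparan sulphate proteoglycan of the surface that serves as an FGF co-receptor, NME4 (0.93) and TMEM59 (0.92). SDC4 ranged from 25.6 CPM to 256 CPM, the latter in MPS-LM, where FGFR2 was highest. Among the 3 most like FGFR3 were GRHL3 (0.91), a transcription factor of surface epithelium, and SAMD11 (0.89), and the most like KIT were STK32A (0.92), the calcium channel gene TRPC4 (0.91) and PAN3 (0.89). For PDGFRA they were CEP85L (0.92), ANTXR2 (0.92) and FKBP7 (0.92), and for PDGFRB they were ACAN (0.93), which encodes the cartilage proteoglycan aggrecan, PNRC2 (0.92) and RCSD1 (0.92). For the other 3 members the highest r was 0.86 for FGFR1 (C1GALT1C1, then RPS20P22 and CRYZL2P), 0.85 for FGFR4 (FKBP5, then ATG101 and NXT2) and 0.85 for PDGFA (FAM217B, with OTUB1 also among the 3).

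Of 88 further genes of these pathways, ligands, co-receptors, adaptors, feedback targets, related receptors and splicing factors, 84 had enough counts to be tested. At 24 h against the control, 31 were called in DE(a), 36 in APS, 41 in MPS and 42 in PPS, while 19.0%, 24.5%, 30.0% and 29.8% of all genes were called, with 20, 24, 28 and 28 of the list higher. The median log2 change of the 84 was between 0.06 and 0.21 in these 4 comparisons, against 0.00 to 0.03 over all genes. Of 18 ligands tested, 7 to 11 were called, and FGF17 was among them in all 4, at 361 CPM in DE(a), 277 in APS, 39.1 in MPS and 6.80 in PPS and 0.147 CPM in the control. FLRT3, a membrane partner of the FGF receptors, rose from 0.805 CPM to 62.7, 173, 124 and 27.8 CPM. FLT1, a receptor of vascular endothelial growth factor, fell from 164 CPM to 36.6, 18.3, 39.0 and 20.0 CPM. ETV1, a transcriptional target of FGF signalling, fell from 115 CPM to 34.04, 23.44, 24.6 and 14.4 CPM. It is on the list of 15 feedback targets, whose median log2 change was 0.15 in DE(a), -0.11 in APS, 0.58 in MPS and 0.60 in PPS. Called feedback targets were higher in 4 of 7 in DE(a) and APS, 5 of 7 in MPS and 6 of 9 in PPS. The summed level of the feedback targets was 838 CPM in the control and 1013, 1019, 1470 and 2173 CPM in these protocols.

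Between the media, 50 of the 84 were called in DE(b) against PM, 25 in each direction (43% of all genes), 54 in LM against PM, 24 higher (42%), and 50 in LM against DE(b), 14 higher (39.6%). The feedback targets were called in 14 of 15 for DE(b) against PM, 6 higher and 8 lower. DUSP4, a phosphatase that acts on ERK, was at 10.9 CPM in LM, 13.7 in PM and 349 in DE(b), and EGR1, an early response gene, at 3.33 CPM in DE(b) and 122 in PM. In LM, where FGFR2 and FGFR3 were highest, FGF10, a ligand of the epithelial form of FGFR2, was at 78.5 CPM against 7.47 in PM and 1.58 in DE(b), and FGF19 at 124 CPM against 2.75 in DE(b). FGF17 was at 3.03 CPM in LM, 124 in PM and 629 in DE(b), and FGF8 at 0.0606, 23.3 and 15.4 CPM. The next 3 genes were chosen after their values were seen. ESRP1 and ESRP2, splicing factors that favour the epithelial form of FGFR2, were at 24.1 and 6.88 CPM in PM, 33.95 and 12.8 in LM, and 72.1 and 27.1 in DE(b). KITLG, the ligand of KIT, was at 62.8 CPM in LM, 25.9 in PM and 11.5 in DE(b), the lowest where KIT was highest (log2 change -1.12, adjusted p = 1.1e-05, for DE(b) against PM, and 2.44, adjusted p = 1.1e-10, for LM against DE(b)).

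The genes beside PDGFRA and KIT on chromosome 4 had other profiles. KDR, 337698 bases from KIT, was at 754 CPM on average in LM medium, 57.6 in PM and 74.2 in DE(b), with LM above PM by 3.80 log2 units (SE 0.24, adjusted p = 1.6e-11). Over the 17 conditions KDR had r = 0.27 with PDGFRA and -0.16 with KIT. CHIC2, on the other side of PDGFRA, stayed between 3.81 and 11.1 CPM. Next to PDGFRB, 467 bases away, CSF1R, a related receptor of macrophages, was at most 1.15 CPM on average in any condition, and CDX1, 10906 bases away on the other side, ranged from 0 CPM in the control to 177 CPM in APS-PM (r = -0.16 with PDGFRB).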

How the data were processed

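RNA of 34 libraries was sequenced in bulk. The authors quantified reads with Salmon 1.10.2 in quasi-mapping mode, with correction for sequence and GC bias and a transcriptome index of GRCh38, summed transcripts to genes in R 4.4.2 and deposited estimated counts per gene, which need not be whole and were rounded here. No column of the deposited tables was without a sample, and 37951 genes were listed. Total estimated counts per library were 15522780 to 23439799. CPM and the intervals of error cover counting and replicate spread of 2 libraries per condition only, since Salmon's own uncertainty was not used here.

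All 34 libraries entered 1 fit with a mean per condition in edgeR 4.0.16 (R 4.3.3), with TMM normalization, filterByExpr by condition, the quasi-likelihood F test and Benjamini-Hochberg adjustment over 17895 genes in each comparison. There were 17 residual degrees of freedom, and the common dispersion was 0.0611. The common control and 24 h libraries enter several comparisons. Where replicates are not separate cultures, p-values measure technical spread only. The scripts were tested on simulated data. Alternatives were RLE normalization, no filter, a replicate block, only the libraries compared, leaving out each library in turn, and DESeq2 1.42.0. The replicate numbers were not taken as pairs (see the closing section for the check).

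Levels per length used the canonical GENCODE transcript or the union of exons. The members and the gene lists were chosen with earlier results of these data known. Named besides the members were, for each, the 3 genes with the highest Pearson r over condition means of log2(CPM + 1) among genes whose mean reached 1 CPM, up to 3 rises and 3 falls of largest fold among called genes of the pathway lists that reached 10 CPM in a condition, and neighbours on the chromosome. A few genes that this rule or the lists name are not reported here. Where a listed symbol had several identifiers, the one with most counts was tested. Promoters were those of RefSeq for 7 members. Tables and plots were made with Python 3.11.15, pandas 2.3.3 and matplotlib 3.10.9.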

Additional observations from a re-analysis of the deposited data

Results flagged for a closer look

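For 5 of the 8 genes the difference between day 1 protocols depended on the day 2 medium in the interaction test of edgeR over the 12 conditions at 48 h. The adjusted p was 0.000153 for KIT, which went down from DE(a) to PPS in DE(b) medium and had its lowest PM level after APS. It was 0.00179 for PDGFRA, which was highest after PPS in DE(b) and PM medium and after APS in LM medium. It was 0.00214 for FGFR1, with its highest level of 762 CPM in DE(a)-LM and its lowest DE(b) level after DE(a). It was 0.00338 for FGFR3, which was spread by protocol in LM medium, and 0.0265 for FGFR4, where DE(a)-LM stood above the other LM conditions. The FGFR4 result was lost when either DE(a)-LM library or DE(a)-DE(b) replicate 1 was left out (adjusted p = 0.069, 0.17 and 0.057).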

How the results depend on the processing

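Of 166 called results of the members, 103 kept their call in every alternative and 0 reversed. The other 63 were lost in leave-one-out fits or in fits of only the libraries compared, and 0 with RLE normalization, no filter, DESeq2 or the replicate block. Counts of called tests of the members with 1 library left out were 67 to 83 against 79 for the comparisons with the control, 1 to 4 against 4 for neighbouring PS protocols, 42 to 54 against 50 for day 2 against day 1, 15 to 18 against 16 for the media, 8 to 18 against 12 for day 1 protocols within a medium, and 4 to 7 against 5 for the interaction. The count of neighbouring protocols was 1 without MPS-24h replicate 1 and 2 without MPS-24h replicate 2, APS-24h replicate 2 or PPS-24h replicate 2. Without the filter, 30 tests of day 1 protocols within a medium and 8 interactions were called. The cause was not tested.

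With the replicate block, 8 interactions, 89 comparisons with the control, 4 of neighbouring protocols, 56 of day 2 against day 1, 18 of the media and 17 of day 1 protocols were called. Deviations of same-numbered libraries from their condition means correlated with r from -0.17 to 0.53 over 136 pairs of conditions, 88 of them over 0.1 and 2 under -0.1. Among the 24 pairs of conditions of the same time and medium, 22 were over 0.1, with a median of 0.29, so that same-numbered libraries mostly deviated together there. All first libraries and all second libraries were deposited in separate sets, the second named a repeat. As not every pair was over 0.1 and the labels name no shared culture, the numbers were not taken as a pairing in the main fit. A difference shared by same-numbered libraries is therefore not modelled there. DESeq2 called 82, 4, 55, 19, 17 and 7 tests in the order of the first list. With the union of exons in place of the canonical transcript, the highest level per kb was 44.3 for FGFR1, 17.8 for FGFR2, 47.2 for FGFR3, 27.5 for FGFR4, 54.5 for PDGFRA, 17.4 for PDGFRB, 4.72 for PDGFA and 15.9 for KIT. With TMM library sizes the highest level of FGFR1 was 732 CPM. Condition means of 2 libraries limit what can be called, and a test that was not called does not show equal levels.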
